A study of Homo sapiens with 7 samples.

Results

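The binding sites of TRIM28 were compared with those of SPT5 in BJAB, a long-established line of human B cells that arose from a Burkitt's lymphoma. Both were mapped by ChIP-seq (chromatin immunoprecipitation and sequencing), in which DNA crosslinked to a protein is recovered with an antibody, sequenced and searched for regions of high read density (peaks). The members were the 43998 TRIM28 peaks and 54885 SPT5 peaks on chromosomes 1 to 22, of 132893 peaks in the 5 deposited lists of the series. Each antibody had 1 library from BJAB cells of multiple passages, with no treatment or genetic change named in the labels and no replicate, so no test between conditions could be made. Pol II, O-GlcNAc and OGA libraries of the same line served as further readouts. The 2 IgG libraries were not analysed here. All 95% intervals are Wilson intervals for shares or order-statistic intervals for medians. They cover counting error over the peaks of 1 library only, and neighbouring peaks are not independent.

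TRIM28 (TIF1b, KAP1) represses transcription without binding DNA itself. KRAB zinc finger proteins bring it to DNA, where it gathers histone methyltransferases and other silencing factors, many of its known sites being transposable elements and the zinc finger genes themselves. It has also been described at paused promoters. SPT5 is the large subunit of DSIF, a complex that binds RNA polymerase II (Pol II) soon after initiation, takes part in promoter-proximal pausing and, once phosphorylated, moves along the gene with the elongating polymerase. The series title places both among pausing factors, and the comparison asks how far their sites coincide. OGA takes the sugar O-GlcNAc off nuclear proteins, and the O-GlcNAc antibody recognises proteins that carry this sugar.

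Fewer than 1 in 2 TRIM28 peaks lay on SPT5, and, counted in peaks as deposited, an even smaller share of SPT5 peaks lay on TRIM28. A peak was called shared if it had at least 1 bp in common with any peak of the other list. SPT5 peaks overlapped 19328 of 43998 TRIM28 peaks (43.9%, interval 43.5% to 44.4%), and TRIM28 peaks overlapped 16870 of 54885 SPT5 peaks (30.7%, interval 30.4% to 31.1%). The other 24670 TRIM28 peaks and 38015 SPT5 peaks were unshared. The difference between the lists depended on how peaks were counted. With peaks of each list within 500 bp of each other merged, the shares were 42.0% of 40587 TRIM28 and 40.3% of 38356 SPT5 regions. By length, 45.6% of the bases under TRIM28 peaks also lay under SPT5 peaks, while 18.9% of the bases under SPT5 peaks lay under TRIM28 peaks, out of 15.3 Mb covered by TRIM28 and 36.8 Mb covered by SPT5. Read depth is unknown for both lists, and a library of fewer reads yields fewer peaks.

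Few sites lay at the edge of this rule. Of the 19543 overlapping pairs, 180 (0.921%) overlapped by under 50 bp. The 177 TRIM28 peaks in them had a median width of 271 bp and a median fold enrichment of 2.93, and 15.3% overlapped Pol II. Just outside the rule, 102 unshared TRIM28 peaks ended under 50 bp from an SPT5 peak, with a median width of 255.5 bp, a median fold enrichment of 2.98 and Pol II at 8.82%. Both sets were narrower and lower than the medians of all TRIM28 peaks, 304 bp and 3.49.

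Shared peaks were wider than unshared peaks in both lists, and the contrast was the larger for SPT5. Shared TRIM28 peaks had a median width of 348 bp (interval 345 to 350 bp, quartiles 258 and 480 bp), against 281 bp for unshared ones (279 to 282 bp, quartiles 227 and 356 bp), a ratio of 1.24. Shared SPT5 peaks had a median width of 726 bp (714 to 735 bp, quartiles 421 and 1178 bp), against 340 bp for unshared ones (338 to 343 bp, quartiles 244 and 561 bp), a ratio of 2.14. TRIM28 peaks seldom formed domains: 277 shared peaks (1.43%) and 24 unshared peaks (0.0973%) were wider than 1 kb. Of the SPT5 peaks, 5447 shared ones (32.3%) and 3531 unshared ones (9.29%) passed that width. A wide peak has more room to be overlapped, so width enters the rule itself. The share of TRIM28 peaks with SPT5 was 29.3% in the narrowest 10% of the list and 77.7% in the widest, and that of SPT5 peaks with TRIM28 was 9.66% in the narrowest and 62.3% in the widest.

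**Figure D1:**
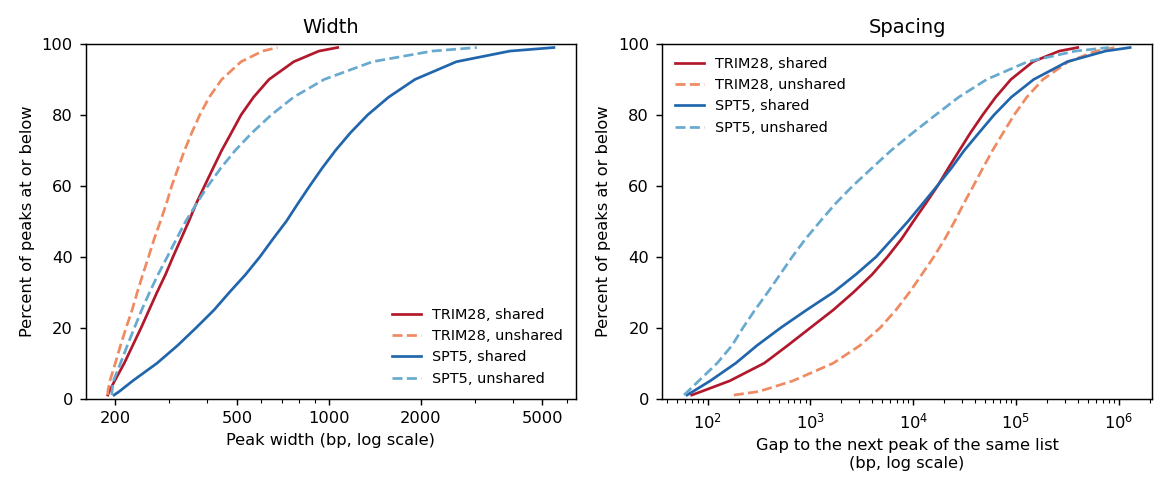
Cumulative percent of peaks (vertical axis) by width in bp (left, log scale) and by gap in bp to the next peak of the same list (right, log scale), for shared (solid) and unshared (dashed) TRIM28 and SPT5 peaks. Shared peaks lie to the right of unshared ones in width, with medians of 348 and 281 bp for TRIM28 and 726 and 340 bp for SPT5, whereas in spacing the shared TRIM28 curve lies to the left of the unshared one and the shared SPT5 curve to the right of it over most of the range.

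Spacing set the lists apart. The gap ran from the end of a peak to the start of the next peak of the same list, and none was shorter than 55 bp. Shared TRIM28 peaks were followed by the next TRIM28 peak after a median of 10043 bp (interval 9596 to 10474 bp), against 25313 bp for unshared ones (24713 to 25944 bp). Shared SPT5 peaks were followed by the next SPT5 peak after a median of 8906 bp (8499 to 9451 bp), against 1246 bp for unshared ones (1202 to 1289 bp). TRIM28 sites with SPT5 were therefore the crowded ones of their list, at 0.397 times the gap of unshared ones, and SPT5 sites with TRIM28 the sparse ones, at 7.15 times. Among TRIM28 peaks, 20.0% of shared and 7.09% of unshared ones had the next peak within 1 kb, while 8.53% of shared and 19.2% of unshared ones had it over 100 kb away. Among SPT5 peaks, 25.7% of shared and 46.7% of unshared ones had the next peak within 1 kb. The SPT5 ratio was smaller, at 4.10, when both lists were cut at a −log10 q of 5, and 3.00 after peaks within 500 bp of each other were merged. With the nearest peak on either side in place of the next one, the TRIM28 ratio was 0.260.

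At matched width or height these contrasts kept their direction in most classes of equal size. Within each of the 10 width classes of TRIM28 peaks, shared peaks had the shorter median gap, at 0.313 to 0.743 times that of unshared ones. Within each of the 10 width classes of SPT5 peaks, shared peaks had the longer one, at 5.83 to 16.1 times. By fold enrichment, the exception was the highest 10% of SPT5 peaks, where the median gap was 11910 bp for shared and 14753 bp for unshared peaks. At matched fold enrichment shared peaks were wider in all 10 classes of both lists, by 1.24 to 1.57 times for TRIM28 and 1.10 to 1.36 times for SPT5.

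Lying in runs was most common among unshared SPT5 peaks and least common among unshared TRIM28 peaks. When peaks separated by at most 5 kb were joined into runs, 71.0% of unshared SPT5 peaks and 42.1% of shared ones belonged to runs of 3 or more. The corresponding shares of TRIM28 peaks were 33.8% for shared and 15.3% for unshared ones, and 65.7% of unshared TRIM28 peaks stood alone. The 5289 SPT5 runs of 3 or more peaks had a median span of 6736 bp and covered 52.7 Mb in all. Of these runs, 3480 (65.8%) held at least 1 peak with TRIM28, and 16943 of their 26984 unshared SPT5 peaks (62.8%) lay in such a run. Unshared TRIM28 peaks touch no SPT5 peak by definition and can lie only in the gaps of such runs, where 723 of 24670 (2.93%) were found. The longest SPT5 run, on chromosome 20 from 46129272 to 46310456, held 164 peaks, of which 26 were shared. The longest TRIM28 run, on chromosome 7 from 101490113 to 101539791, held 27 peaks, of which 25 were shared. All positions are in build hg19, and genes are not named because the gene annotation at hand was of another build. Both runs were named for their length after their values were seen.

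A shared peak came next more often after shared peaks than after unshared ones. The next TRIM28 peak was shared after 58.9% of shared peaks and after 32.2% of unshared ones, against 43.9% shared in the whole list. The next SPT5 peak was shared after 42.7% of shared peaks and after 25.4% of unshared ones, against 30.7% in the whole list. Most shared SPT5 peaks were thus still followed by an unshared one. Distance to the other list told unshared peaks of the lists apart: unshared TRIM28 peaks lay a median of 23824 bp from the nearest SPT5 peak (interval 23158 to 24551 bp), and unshared SPT5 peaks a median of 7523 bp from the nearest TRIM28 peak (7381 to 7668 bp). Within 10 kb of a peak of the other list lay 33.5% of unshared TRIM28 peaks and 57.4% of unshared SPT5 peaks, and within 100 kb 77.8% and 98.1% of them.

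Over the whole lists, height ran in opposite directions. The fold enrichment is the authors' own ratio of peak to background (the background is unstated), so values are compared only within a list. Shared TRIM28 peaks had a median fold enrichment of 3.01 (interval 3.00 to 3.03), against 4.03 for unshared ones (4.03 to 4.06). Shared SPT5 peaks had a median of 5.21 (5.12 to 5.32), against 3.10 for unshared ones (3.09 to 3.11). At matched width, shared TRIM28 peaks were the lower ones in all 10 classes. Shared SPT5 peaks were the higher ones in 6 of the 10 width classes and the lower ones in the 4 narrowest, with medians of 2.52 for shared and 2.76 for unshared peaks in the narrowest class and 9.01 and 5.22 in the widest. The share of SPT5 peaks with TRIM28 did not climb evenly with height: it was 23.8% in the lowest of 10 classes, 15.1% in class 4 and 76.7% in the highest. That of TRIM28 peaks with SPT5 was lower in each class than in the one below it, from 75.7% in the lowest to 6.18% in the highest.

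**Figure D2:**
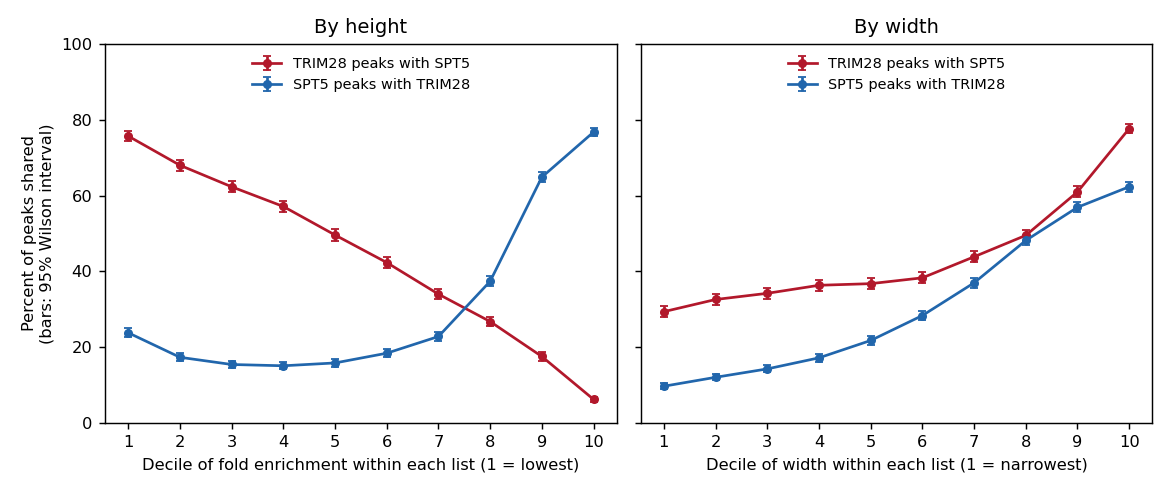
Percent of peaks shared (vertical axis, with 95% Wilson intervals) in 10 equal classes of each list, by fold enrichment (left) and by width (right), for TRIM28 and SPT5 peaks. By height the TRIM28 line falls to 6.18% and the SPT5 line ends at 76.7%, while by width both lines climb, to 77.7% and 62.3%.

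Among the 3 highest peaks of each class, shared and unshared peaks differed in height for TRIM28 but were of like height for SPT5. These are extremes of classes of unlike size, 16870 shared and 38015 unshared SPT5 peaks. Of the highest 10% of SPT5 peaks, 76.7% were shared, against 30.7% of the whole list. The 3 highest shared TRIM28 peaks lay at 37716694 to 37717226 on chromosome 8 (fold enrichment 24.3), 18831218 to 18831765 on chromosome 1 (20.0), and 93708746 to 93709244 on chromosome 1 (18.5). Their SPT5 peaks had fold enrichments of 5.37, 2.58 and 2.45 within the SPT5 list, and none of the 3 TRIM28 peaks overlapped Pol II. The 3 highest unshared TRIM28 peaks lay at 2787708 to 2788301 on chromosome 1 (45.4), 80207993 to 80208683 on chromosome 15 (37.8), and 6060132 to 6060796 on chromosome 4 (35.7). None of these overlapped Pol II, O-GlcNAc or OGA, although the one on chromosome 15 ended 553 bp from an SPT5 peak. The highest shared SPT5 peaks, at 4242909 to 4246294 on chromosome 17 (28.0), 26903045 to 26905016 on chromosome 17 (25.2), and 42055155 to 42056393 on chromosome 19 (24.9), all overlapped Pol II and each met 1 TRIM28 peak, with a TRIM28 fold enrichment of 2.94, 3.37 and 2.25. The highest unshared SPT5 peaks, at 118963689 to 118966730 on chromosome 11 (28.1), 106815755 to 106816872 on chromosome 14 (24.9), and 101869273 to 101869837 on chromosome 10 (24.2), also overlapped Pol II, and the nearest TRIM28 peaks lay 7899, 4806 and 5028 bp away. The TRIM28 partners of the 3 highest shared SPT5 peaks were all below the median fold enrichment of all TRIM28 peaks, 3.49. They lay on both sides of the median of shared TRIM28 peaks, 3.01.

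Most shared sites carried Pol II and few unshared sites did, least of all among TRIM28 peaks. Pol II peaks overlapped 28.8% of all TRIM28 peaks and 28.9% of all SPT5 peaks. They overlapped 12468 of the 19328 shared TRIM28 peaks (64.5%, interval 63.8% to 65.2%), against 189 of the 24670 unshared ones (0.766%, 0.665% to 0.883%). They overlapped 10808 of the 16870 shared SPT5 peaks (64.1%, 63.3% to 64.8%), against 5040 of the 38015 unshared ones (13.3%, 12.9% to 13.6%). Shared peaks had the higher Pol II share in each of the 10 width classes and each of the 10 height classes of both lists, but by very unequal margins. Among the narrowest 10% of TRIM28 peaks, for example, Pol II was present at 54.4% of shared and 0.675% of unshared ones. Among the highest 10% of SPT5 peaks nearly all carried it, at 99.6% of shared and 95.2% of unshared ones, and in the next class it lay at 95.8% and 69.2%. The share at unshared SPT5 peaks was 28.8% once both lists were limited to a −log10 q of 5 or higher. That at unshared TRIM28 peaks was 1.19% when sharing required an overlap of 50% of the shorter peak, and 1.45% when it required the TRIM28 summit to lie inside the SPT5 peak.

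O-GlcNAc and OGA followed SPT5 and TRIM28 in different ways. O-GlcNAc peaks overlapped 13.1% of all TRIM28 and 14.1% of all SPT5 peaks, and OGA peaks overlapped 5.14% and 3.21%. O-GlcNAc was present at 29.3% of shared and 0.377% of unshared TRIM28 peaks, and at 32.7% of shared and 5.91% of unshared SPT5 peaks. SPT5 lay at 5663 of the 5756 TRIM28 peaks with O-GlcNAc, so few of these could be unshared. OGA was present at 8.82% of shared and 2.25% of unshared TRIM28 peaks, and at 9.94% of shared and 0.229% of unshared SPT5 peaks. None of these 3 targets overlapped 23860 unshared TRIM28 peaks (96.7%) and 32479 unshared SPT5 peaks (85.4%), against 31.1% and 31.6% of the shared peaks.

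**Figure D3:**
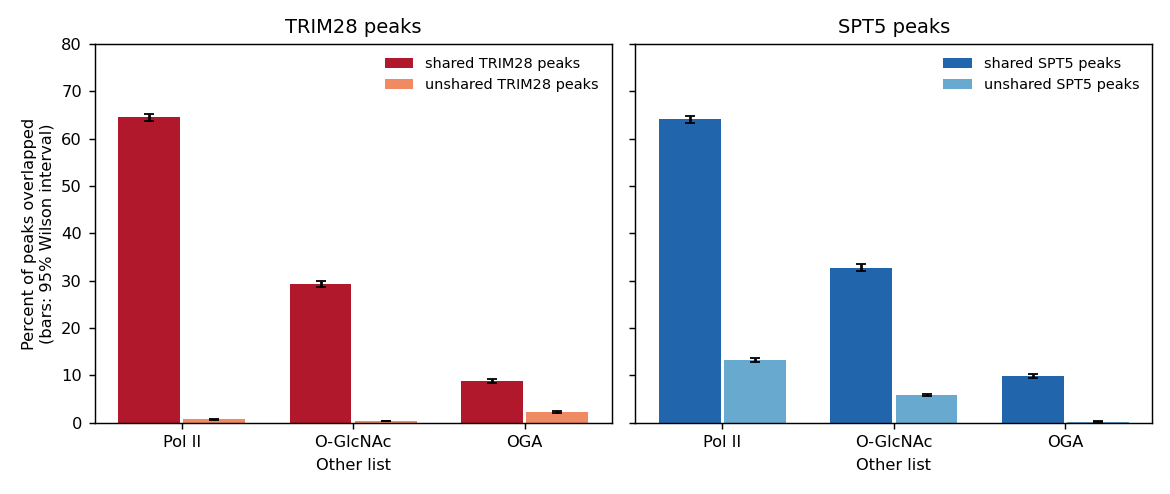
Percent of TRIM28 peaks (left) and SPT5 peaks (right) overlapped by Pol II, O-GlcNAc and OGA peaks, for shared (dark) and unshared (light) peaks, with 95% Wilson intervals. Pol II lies at 64.5% and 64.1% of the shared peaks, against 0.766% of unshared TRIM28 and 13.3% of unshared SPT5 peaks.

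Splitting the SPT5 peaks by Pol II showed which of their features went with TRIM28 and which with the polymerase. Where Pol II was present, the median SPT5 width was 952 bp with TRIM28 and 663 bp without it, and the median fold enrichment was 7.81 with TRIM28 and 5.80 without it. SPT5 peaks without Pol II were narrow and low either way, at 379.5 bp with TRIM28 and 316 bp without, and at fold enrichments of 2.96 and 3.01. O-GlcNAc at SPT5 peaks went chiefly with Pol II: 49.4% with TRIM28 and 35.4% without it where Pol II was present, and 3.05% and 1.41% where it was absent. OGA at SPT5 peaks went chiefly with TRIM28, whether Pol II was present or not. It lay at 10.3% of SPT5 peaks with TRIM28 and Pol II and at 9.25% of those with TRIM28 alone, against 0.952% of SPT5 peaks with Pol II and no TRIM28 and 0.118% of those with neither. In the TRIM28 list, OGA also went with SPT5. Without Pol II it lay at 8.75% of TRIM28 peaks with SPT5 and 2.22% of those without. With Pol II the shares were 8.86% and 6.35%, the latter of only 189 peaks.

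The spacing of SPT5 peaks differed most where Pol II was absent. Without Pol II, the median gap to the next SPT5 peak was 6148 bp for peaks with TRIM28 and 1041 bp for those without. With Pol II, it was 11091 bp and 8968 bp. Peaks of TRIM28 with SPT5 but no Pol II numbered 6860 and had a median width of 311 bp and a median fold enrichment of 3.13, against 281 bp and 4.04 for the 24481 TRIM28 peaks with neither. Of these Pol II-free TRIM28 peaks, a Pol II peak lay within 10 kb of 51.9% of shared and 19.9% of unshared ones. For Pol II-free SPT5 peaks the corresponding shares were 46.1% and 46.9%, with overlapping intervals (44.9% to 47.4% for shared and 46.4% to 47.5% for unshared peaks).

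Most shared TRIM28 peaks lay whole inside an SPT5 peak. This was so for 13239 of 19328 (68.5%, interval 67.8% to 69.1%), or 30.1% of all TRIM28 peaks. Of the 19543 pairs, 5304 (27.1%) overlapped in part, and in 1000 (5.12%) the SPT5 peak lay inside the TRIM28 peak. The TRIM28 summit, the position of highest signal in a peak, fell inside the SPT5 peak in 94.0% of pairs. Only 215 shared TRIM28 peaks (1.11%) spanned more than 1 SPT5 peak, and 14410 pairs (73.7%) joined 1 TRIM28 peak to 1 SPT5 peak.

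In those single pairs the summits lay a median of 89 bp apart (interval 87 to 91 bp, quartiles 37 and 173 bp). They were within 50 bp in 4643 pairs (32.2%) and 500 bp or more apart in 496 (3.44%). The median distance was 104.5 bp in the 8746 pairs whose SPT5 peak overlapped Pol II and 71 bp in the 5664 pairs without. The SPT5 peaks of the pairs with Pol II were also wider, at a median of 858 bp, against 378 bp, which gives summits more room to lie apart. In SPT5 peaks wider than 1 kb, 41.1% of the TRIM28 summits inside fell in the middle of 3 equal parts, as did 53.8% of the SPT5 summits of the shared peaks of that width.

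Most SPT5 peaks met no TRIM28 peak, and most of those that met any met a single one. Of the 54885 SPT5 peaks, 38015 (69.3%) were overlapped by none. Of the 16870 shared SPT5 peaks, 14770 (87.6%) were overlapped by 1 TRIM28 peak, 1688 (10.0%) by 2, 309 (1.83%) by 3, 65 by 4, 26 by 5 and 12 by 6 or more, with 9 as the highest number. Thus 2100 SPT5 peaks (12.4%) had 2 or more, and the 4767 TRIM28 peaks at them made up 24.7% of the shared TRIM28 peaks. With peaks of each list within 500 bp of each other merged, the share of overlapped SPT5 peaks with 2 or more was 7.99%. Counting only TRIM28 peaks that lay whole inside, 1633 SPT5 peaks (9.68%) held 2 or more and 337 (2.00%) held 3 or more, with 8 as the highest number. Neighbouring TRIM28 summits over the same SPT5 peak lay a median of 681 bp apart (interval 665 to 699 bp). At these 2100 peaks the nearest TRIM28 summit lay a median of 93 bp from the SPT5 summit, and the farthest a median of 702.5 bp. The nearest was picked from 2 or more summits, so its distance is not comparable with that of single pairs.

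SPT5 peaks with more TRIM28 were wider and higher and nearly always carried Pol II. The median width was 340 bp with no TRIM28 peak, 645 bp with 1, 1548 bp with 2, 2542 bp with 3, 4145 bp with 4, 6684 bp with 5 and 10091 bp with 6 or more. Pol II lay at 13.3% of SPT5 peaks with none, 60.0% with 1, 91.7% with 2, 97.4% with 3 and 95.4% with 4 TRIM28 peaks, and at all 26 with 5 and at all 12 with 6 or more. OGA lay at 0.229% with none, 8.99% with 1, 14.0% with 2, 71 of 309 with 3, 32.3% with 4, 12 of 26 with 5 and 8 of 12 with 6 or more. O-GlcNAc did not climb at each step: it lay at 5.91% with none, 30.4% with 1, 48.9% with 2, 51.1% with 3, 44.6% with 4, 12 of 26 with 5 and 8 of 12 with 6 or more. A wide peak has more room for Pol II and OGA peaks as well as for TRIM28.

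SPT5 peaks with Pol II had TRIM28 more often than those without in each of the 6 width classes. In the narrowest class, up to 250 bp, 28.8% of those with Pol II had TRIM28 (interval 24.5% to 33.6%), against 10.3% of those without (9.76% to 10.9%). Among SPT5 peaks of over 500 to 1000 bp, 67.6% of those with Pol II had TRIM28 (interval 66.4% to 68.7%), against 20.5% of those without Pol II (19.6% to 21.5%). In the class of over 2000 to 5000 bp the shares were 82.3% with Pol II and 14.4% without. The share with 2 or more TRIM28 peaks was 44.8% with Pol II and 3.84% without in that class, and 61.1% and 8.11% among the 226 and 74 peaks wider than 5 kb. With Pol II the share with 1 or more climbed with width up to the class of 2000 to 5000 bp. Without Pol II it rose from 10.3% in the narrowest class to 20.5% at over 500 to 1000 bp. It then fell to 14.4% at over 2000 to 5000 bp. Among the 74 peaks wider than 5 kb it was 29.7% (interval 20.5% to 40.9%). Per length, and with all SPT5 peaks pooled, TRIM28 was densest in the class of over 500 to 1000 bp, at 0.627 TRIM28 summits per kb of SPT5 peak. The pooled density was lower on both sides, at 0.341 per kb in peaks up to 250 bp and 0.229 per kb in peaks wider than 5 kb. Split by Pol II, TRIM28 was instead densest in the class of over 250 to 500 bp, at 1.09 per kb with Pol II and 0.425 without. At over 500 to 1000 bp these densities were 0.937 and 0.296. Pol II lay at 12.0% of SPT5 peaks in the former class and 49.4% in the latter.

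**Figure D4:**
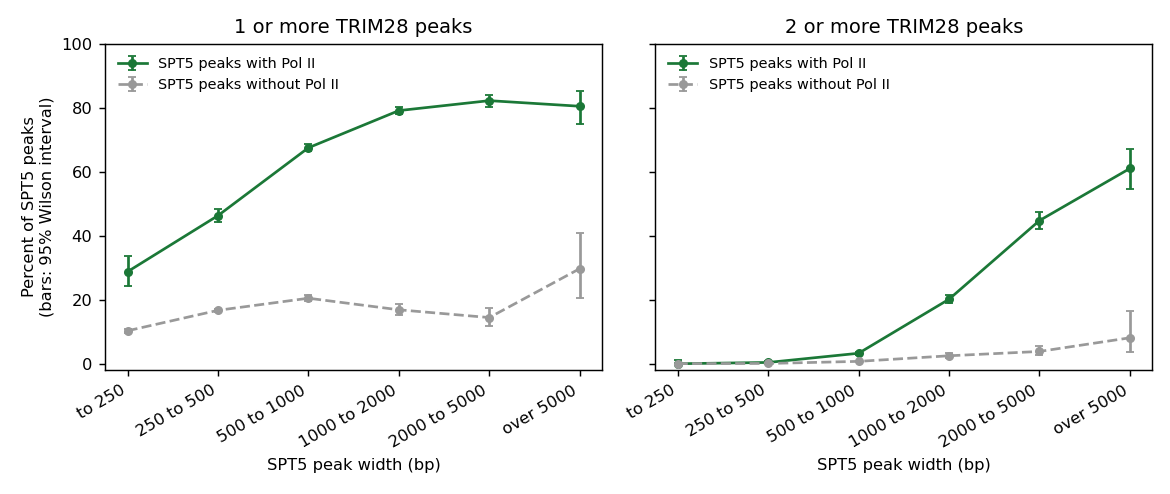
Percent of SPT5 peaks with 1 or more (left) and 2 or more (right) TRIM28 peaks by SPT5 width class in bp (horizontal axis), for SPT5 peaks with Pol II (solid) and without (dashed), with 95% Wilson intervals. In the class of over 2000 to 5000 bp the shares are 82.3% with Pol II and 14.4% without on the left, and 44.8% and 3.84% on the right.

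The SPT5 peaks with the most TRIM28 were long domains on chromosomes 20, 19 and 16. The first, at 55963866 to 55986073 on chromosome 20 (22208 bp, SPT5 fold enrichment 15.2), was overlapped by 9 TRIM28 peaks of 189 to 1077 bp, 1 of which began before it, and whose TRIM28 fold enrichments lay between 2.67 and 4.97. Their summits lay at offsets of -1957 to 15489 bp from the SPT5 summit. Pol II overlapped 6 of the 9, O-GlcNAc 2 and OGA 2. The second, at 35818420 to 35841788 on chromosome 19 (23369 bp, 18.5), held 7 TRIM28 peaks with fold enrichments of 2.24 to 3.27, all 7 on Pol II and none on O-GlcNAc or OGA. The last, at 1020127 to 1033633 on chromosome 16 (13507 bp, 15.8), held 7 with fold enrichments of 2.44 to 6.16, 6 of them on Pol II, 1 on O-GlcNAc and 1 on OGA.

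Width alone did not fix the number. The widest SPT5 peak, at 130719708 to 130746764 on chromosome 9 (27057 bp), was overlapped by 5 TRIM28 peaks, and the next, at 8916477 to 8940129 on chromosome 1 (23653 bp), by 2. The widest TRIM28 peaks, at 195634436 to 195636786 on chromosome 3 (2351 bp), 65405320 to 65407436 on chromosome 11 (2117 bp), and 73514346 to 73516398 on chromosome 7 (2053 bp), all lay on SPT5, Pol II and OGA. Their TRIM28 fold enrichments of 3.03, 3.65 and 4.53 were far below those of the highest TRIM28 peaks.

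The lists were laid out alike along the chromosomes, but TRIM28 was the more evenly spread. Density was taken per Mb of chromosome up to the last peak of either list. TRIM28 density ran from 7.52 peaks per Mb on chromosome 13 to 35.9 on chromosome 19, and SPT5 density from 8.16 on chromosome 13 to 58.8 on chromosome 19. There were 0.611 TRIM28 peaks for each SPT5 peak on chromosome 19 and 1.10 on chromosome 4, the lowest and highest of the 22 ratios, with a median of 0.815. Chromosome 19 is rich in genes and carries the largest clusters of KRAB zinc finger genes, a known class of TRIM28 targets. It held 4.82% of TRIM28 peaks and 6.33% of SPT5 peaks.

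The share of TRIM28 peaks on SPT5 spanned a wider range over the chromosomes than that of SPT5 peaks on TRIM28. SPT5 overlapped 60.5% of TRIM28 peaks on chromosome 19 (interval 58.4% to 62.6%), 54.4% on chromosome 17 (52.4% to 56.4%), 34.2% on chromosome 4 (32.1% to 36.3%) and 32.7% on chromosome 13 (29.7% to 35.9%), the last being the lowest. TRIM28 overlapped 24.8% of SPT5 peaks on chromosome 8 and 33.8% on chromosome 20, the lowest and highest of 22. The interval of chromosome 8 ended at 26.7% and that of chromosome 20 began at 31.6%, so they lay apart. On chromosome 19 it was 31.0%, close to the 30.7% of the whole list. Chromosome 19 therefore held 6.64% of shared but 3.39% of unshared TRIM28 peaks, and 6.37% of shared and 6.31% of unshared SPT5 peaks.

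Across the 22 chromosomes, the share of TRIM28 peaks on SPT5 went with SPT5 density (Pearson's r = 0.92, Spearman's rho = 0.88), also without chromosomes 19 and 17, the 2 farthest from the median density (r = 0.88, 20 chromosomes). The share of SPT5 peaks on TRIM28 went less closely with TRIM28 density (r = 0.35, rho = 0.26). The chromosomes share 1 library per list, and a denser list offers more peaks to overlap.

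**Figure D5:**
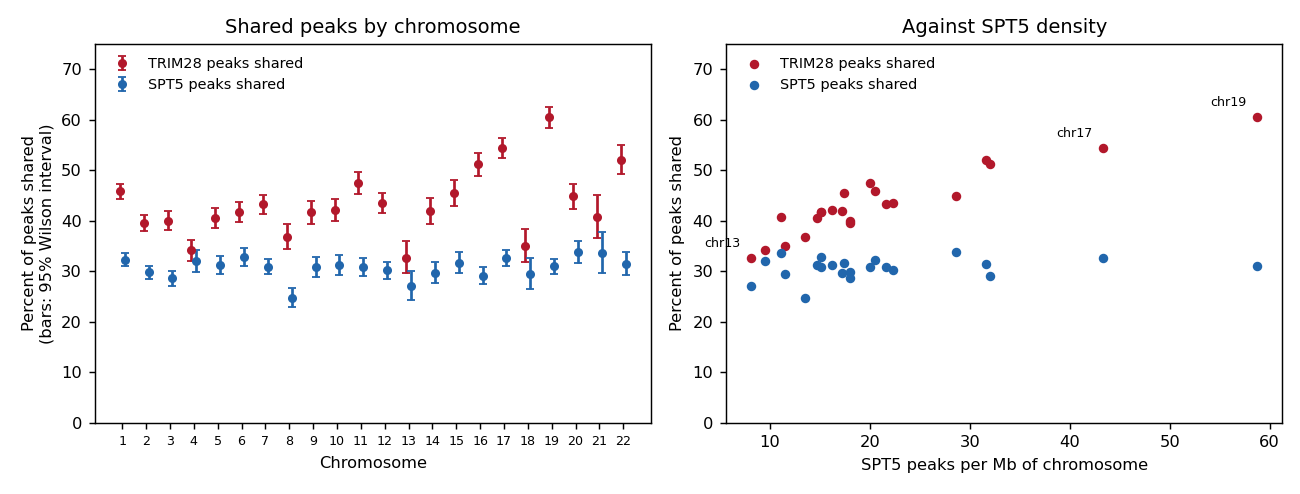
Percent of TRIM28 and SPT5 peaks shared on each of 22 chromosomes with 95% Wilson intervals (left), and the same percentages against SPT5 peaks per Mb of chromosome (right). TRIM28 values span 32.7% to 60.5% and lie higher where SPT5 is denser, while SPT5 values stay between 24.8% and 33.8%.

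Counted in bins of 1 Mb, the lists fell mostly in the same bins, which lists of this length would fill in large part wherever their peaks lay. Of 2614 bins of 1 Mb with a peak of either list, 2262 (86.5%) held both, 334 (12.8%) held TRIM28 and no SPT5, and 18 (0.689%) held SPT5 and no TRIM28. TRIM28 outnumbered SPT5 in 1430 bins (54.7%), which together held 17407 TRIM28 and 9819 SPT5 peaks. Over the bins, counts of unshared TRIM28 peaks and of unshared SPT5 peaks had a Spearman's rho of 0.66 (Pearson's r = 0.52). For counts of shared TRIM28 peaks and of Pol II peaks, rho was 0.91 (r = 0.89). Against Pol II counts, unshared SPT5 peaks came close to this, with a rho of 0.88 (r = 0.78), and unshared TRIM28 peaks had a rho of 0.66 (r = 0.51). Bins of 1 library share its depth and base composition, so these are descriptions only.

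The bins richest in unshared TRIM28 were rich in shared TRIM28 too. The bin at 85000001 to 86000000 on chromosome 16, held 57 unshared and 36 shared TRIM28 peaks, with 77 SPT5 and 15 Pol II peaks. That at 14000001 to 15000000 on chromosome 5, held 52 unshared and 48 shared, with 116 SPT5 and 9 Pol II peaks. At 8000001 to 9000000 on chromosome 2, there were 46 unshared and 15 shared TRIM28 peaks and 20 SPT5 peaks. The bins with the most shared TRIM28 peaks were richer in Pol II: 65000001 to 66000000 on chromosome 11, held 86 shared and 22 unshared TRIM28 peaks with 64 Pol II peaks, 67000001 to 68000000 on chromosome 11, held 75 and 29 with 53, and 101000001 to 102000000 on chromosome 7, held 73 and 44 with 33.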

How the data were processed

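Per the labels' protocols, BJAB cells were fixed in 1% formaldehyde for 5 min and sonicated, each precipitation used 10 µg of antibody, and each library 25 ng of DNA. The submitters' processing notes name Bowtie2 2.1.0, Trimmomatic 0.30, bcl2fastq 2.17 and build hg19. Which peak caller, control library and cutoff were used is not stated. The authors deposited 1 narrowPeak list per library. Its fold enrichment is the authors' ratio to an unstated background, and the −log10 values of p and q that they deposited refer to the same background. The other deposited columns used were peak start, end and summit position. No peaks overlapped within a list.

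Samples were grouped by title, with 1 library per group and hence no p-values. Overlaps, gaps, summits and medians were computed with Python 3.11.15, numpy 2.4.6, pandas 2.3.3 and scipy 1.17.1, and plotted with matplotlib 3.10.9. Shared counts were 19328 and 16870 both here and with bedtools 2.31.1. Tested on simulated data, 2000 peaks planted inside SPT5 peaks, 500 at their edges and 3000 outside were all recovered. Named sites are the 3 SPT5 peaks with the most TRIM28 peaks, the 3 highest shared, highest unshared and widest peaks of each list, and the 3 bins of 1 Mb richest in shared and in unshared TRIM28. The members and rules were chosen with earlier results of these data known. No sequence is printed, since no genome of build hg19 was used here.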

Additional observations from a re-analysis of the deposited data

Results flagged for a closer look

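The same contrast, shared against unshared peaks, went opposite ways in the lists for spacing and for height. The ratio of median gaps to the next peak of the same list was 0.397 for TRIM28 and 7.15 for SPT5. The ratio of median fold enrichments was 0.747 for TRIM28 and 1.68 for SPT5. With 1 library each, neither difference between the lists was tested.

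Chromosomes X and Y lay outside the comparison but held peaks. There were 1005 TRIM28 and 1155 SPT5 peaks on chromosome X, and 41 TRIM28 and 63 SPT5 peaks on chromosome Y. Chromosome X entered only an alternative, and chromosome Y entered none.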

How the results depend on the processing

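None of the 6 ratios turned direction under any alternative run, and 39 of 94 alternative values stayed within the interval of the reported one. The alternatives for Pol II and for fold enrichment were chosen after seeing the data; the cause of each move was not tested. SPT5 overlapped 39.4% of TRIM28 peaks with a −log10 q of at least 5, 41.5% with the SPT5 list at the length of the TRIM28 list, 42.0% with peaks within 500 bp merged, 42.5% with an overlap of 50% of the shorter peak and 41.7% with the TRIM28 summit inside the SPT5 peak. In the same order, TRIM28 overlapped 29.8%, 35.8%, 40.3%, 29.7% and 28.9% of SPT5 peaks, the SPT5 width ratio was 1.67, 1.92, 2.34, 2.20 and 2.26, and Pol II lay at 72.7%, 68.2%, 67.2%, 65.6% and 66.8% of shared SPT5 peaks. Leaving out the merging, TRIM28 peaks lay whole inside an SPT5 peak in 72.4%, 71.7%, 70.7% and 72.1% of shared cases, and Pol II lay at 71.7%, 67.9%, 66.0% and 66.9% of shared and 1.07%, 1.01%, 1.19% and 1.45% of unshared TRIM28 peaks. At the stricter q, after shortening and after merging, Pol II lay at 28.8%, 17.3% and 17.2% of unshared SPT5 peaks, and at 13.6% with chromosome X added. SPT5 peaks with 2 or more TRIM28 made up 8.62%, 13.3% and 7.99% under these 3 and 11.9% with the 50% overlap. At the stricter q and after merging, the TRIM28 width ratio was 1.29 and 1.36, the TRIM28 spacing ratio 0.499 and 0.518, the SPT5 spacing ratio 4.10 and 3.00, and the TRIM28 fold enrichment ratio 0.706 and 0.762. With the nearest peak on either side the spacing ratios were 0.260 for TRIM28 and 4.87 for SPT5. The SPT5 fold enrichment ratio was 1.79 after merging, 1.75 with the 50% overlap and 1.80 with the summit rule. Chromosome 19 held 4.58% of TRIM28 peaks at the stricter q and 6.11% of SPT5 peaks after merging. Read depth is unknown and limits every share. No paired analysis was possible because each group had 1 library and no result came from a test.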
